A study of Mus musculus with 4 samples.

Results

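The genes described here are 39 genes of DNA damage repair and checkpoint signalling, chosen by role with earlier results of these data known. A gene was read from a probe set of the array that the platform annotation assigns to that gene alone, and, where several did, from the one whose average over the arrays was highest. On this rule 38 of the 39 were measured, among 19938 genes with such a probe set in all, and Xrcc2 was not analysed here. They were grouped by role into 12 genes of homologous recombination, 11 Fanconi anaemia genes, 5 end joining genes, 2 mismatch repair genes, 4 checkpoint kinases and 4 genes of break sensing and signalling.

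The study measured gene expression with 1 Affymetrix Mouse Gene 1.0 ST array for each of 4 tissue samples. The tumours were 1 medulloblastoma of a PtchLacZ/+ mouse aged 5 months, which carries a lacZ allele at 1 copy of the Hedgehog receptor gene Ptch1, and 2 medulloblastomas of Math1-Cre;SmoM2 mice aged 2 months and 1 month, in which Cre driven by Math1 (Atoh1) switches on SmoM2, an active form of the Hedgehog transducer Smoothened, in the granule neuron lineage. They were set against 1 whole cerebellum from a wild-type animal, also aged 2 months. All mice were of a mixed C57BL/6 and C3H background, the tumours arose spontaneously, and the labels do not say from how many animals a sample came. The tumours differ in genotype or age, so the spread between them may hold these differences beside animal and technical variation, which cannot be told apart.

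Homologous recombination copies the intact sister chromatid to mend a broken or stalled chromosome and works in S and G2 phase. Fanconi anaemia proteins detect crosslinks between DNA strands and hand the lesion to recombination. End joining religates broken ends without a template and is available in all phases, also in neurons that no longer divide, while mismatch repair corrects copying errors behind the replication fork. The checkpoint kinases Atm and Atr read the damage, and Chek1 and Chek2 pass the signal to the cell cycle.

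Levels are log2 values as deposited, and a difference is tumour minus cerebellum in log2 units, so that 1 unit is a 2-fold change. The value after ± is the standard error of the limma fit, and a gene is said to have risen or fallen where its adjusted p in that fit over all 19938 genes was under 0.05. The lower quartile of genes on an array lay between 5.09 and 5.17, and a level under it is not shown to be above background. A difference from such a level is called a lower limit, since background may hide a larger one, but the error of the fit still applies. Bard1, Rad51ap1, Rad54b, Fanci and Chek2 lay only just above the lower quartile in the cerebellum. The tissue labels were checked against markers. All 15 measured markers of proliferating cells rose, with a mean level of 10.3 in the PtchLacZ/+ tumour, 10.4 in the 2-month and 9.94 in the 1-month SmoM2 tumour, against 6.04 in the cerebellum, and all 10 granule neuron progenitor markers rose, Atoh1 by 6.88 ± 0.28. Of 10 mature granule neuron markers 7 fell, and their mean level was 6.85, 7.80 and 8.07 in the PtchLacZ/+, 2-month SmoM2 and 1-month SmoM2 tumours and 11.2 in the cerebellum. Markers of Purkinje cells (4 of 6), astrocytes (5 of 8) and oligodendrocytes (6 of 7) fell too, where 9.30% of all genes fell. The 1 erythroid marker (Alas2) also fell, and of 8 endothelial and mural markers Tek fell and 7 did not pass. Of 8 microglial markers 3 rose (Cd68, Aif1 and Lyz2), where 6.70% of all genes rose. Of 7 lymphocyte markers only Ptprc rose, which is not particular to lymphocytes, and 6 did not pass. None of 5 choroid plexus markers rose. In bulk tissue, more cells of a type and more RNA per cell cannot be told apart, and the part of these markers in the results on repair genes was not tested.

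Many of the repair and checkpoint genes were higher in the tumours than in the cerebellum, and none passed as lower. Of the 38, 19 rose, where 6.70% of all genes did, and 0 fell, where 9.30% of all genes did. The median difference over the 38 genes was 1.07, against 0.04 over all genes. For 29 of them all 3 tumours lay above the cerebellum, which held for 38.1% of all genes. Since the genes were chosen with earlier results known, these shares describe the list and do not test it. The largest rises were those of the checkpoint kinase gene Chek1 and of Brca1, Exo1, Brip1 and Chek2. By role, the genes that rose were 7 of 12 in homologous recombination, 6 of 11 in the Fanconi anaemia group, 2 of 4 checkpoint kinases, 2 of 4 in break sensing, 1 of 5 in end joining and 1 of 2 in mismatch repair. The 3 tumours gave the fit its spread, and the 1 cerebellar array was taken to vary as they do. The count of 19 became 25 when the 2-month SmoM2 tumour was left out, 17 when the 1-month one was and 13 when the PtchLacZ/+ tumour was. The genes added without the 2-month SmoM2 tumour, Brca2, Rad51c, Fancg, Atm, Atr and Trp53bp1, did not pass without either of the other tumours. With adjustment over all probe sets the count was 10, and Bard1, Rad51ap1, Fancb, Fancf, Xrcc5, Msh6, Chek2, Rad50 and Parp1 no longer passed. That alternative also refits the model on all probe sets, so the standard errors change with it.

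**Figure D1:**
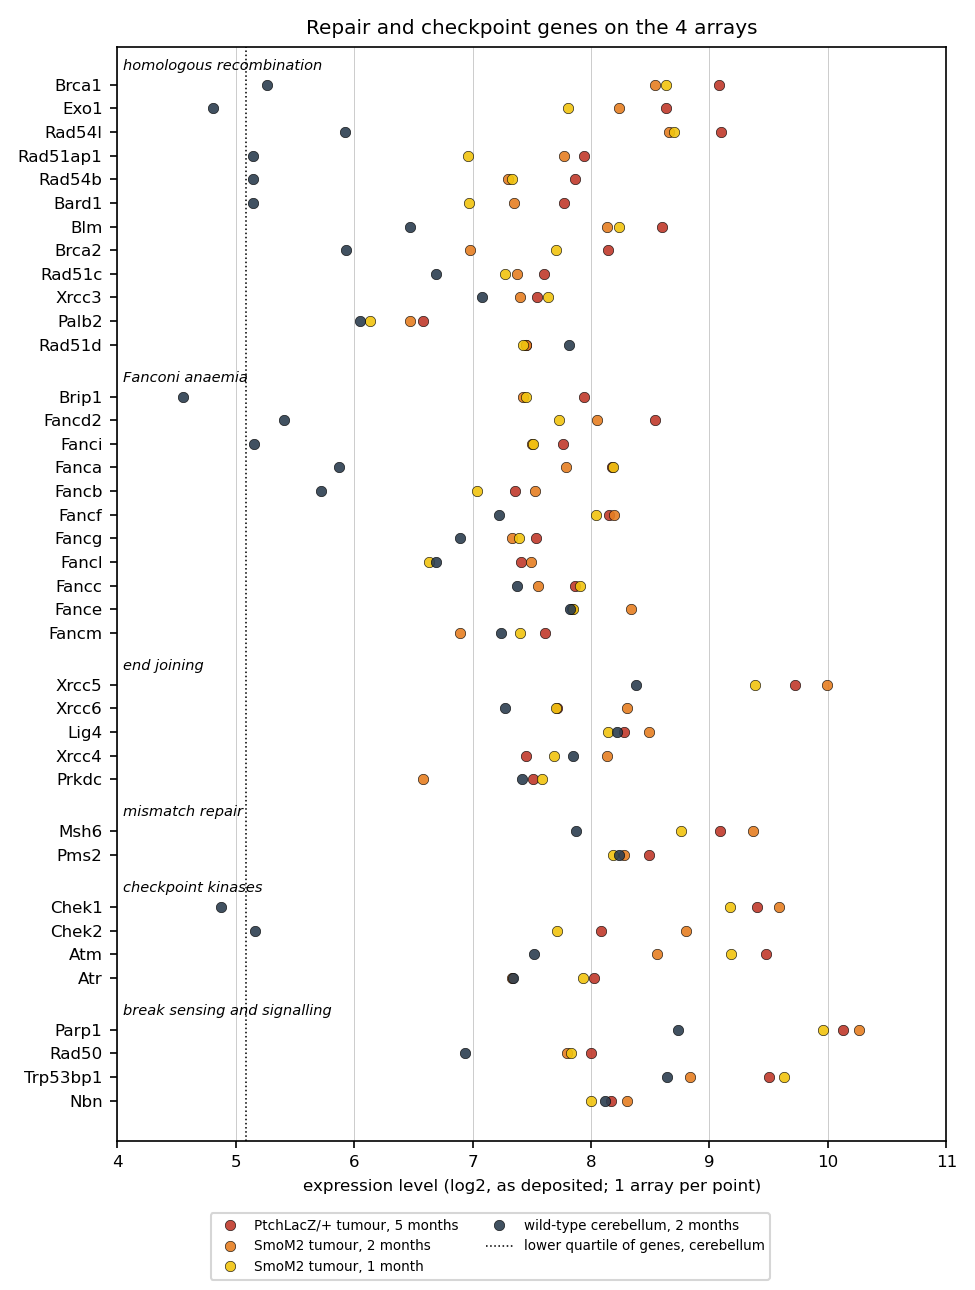
Level of each of the 38 genes (log2, as deposited) on the 4 arrays, 1 point per array, grouped by role, with the lower quartile of genes in the cerebellum as a dotted line. For Chek1, Brca1 and Brip1 the 3 tumour points lie together and well to the right of the cerebellum. Those of Exo1 are more spread but also well to the right. For Lig4, Nbn and Pms2 the cerebellum lies among the tumours.

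Among the recombination genes, 7 rose, by 1.85 to 3.49, among them genes of break resection and strand exchange. Brca1, which with its partner Bard1 forms a ubiquitin ligase that directs broken ends into recombination, was at 9.08 in the PtchLacZ/+ tumour, 8.54 in the 2-month and 8.63 in the 1-month SmoM2 tumour, against 5.26 in the cerebellum. It rose by 3.49 ± 0.27, or 11.2-fold (adjusted p = 0.00429). Bard1 was at 7.77 (PtchLacZ/+), 7.35 (SmoM2, 2 months) and 6.97 (SmoM2, 1 month) in the tumours, against 5.15 in the cerebellum, and rose by 2.21 ± 0.34 (adjusted p = 0.0161, adjusted p = 0.0615 with adjustment over all probe sets). The tumours of both genes lay well above the cerebellum with no overlap, and the PtchLacZ/+ tumour was the highest for each.

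Exo1, the exonuclease that resects broken ends and also acts in mismatch repair, was at 8.64 in the PtchLacZ/+ tumour, 8.24 in the 2-month and 7.80 in the 1-month SmoM2 tumour, against 4.81 in the cerebellum. Exo1 rose by 3.41 ± 0.35, or 10.7-fold (adjusted p = 0.00674), with an unadjusted interval of 2.52 to 4.30. The cerebellar level was under the lower quartile, so background may hide a larger rise, but the error of the fit still applies. Rad54l, a motor protein that remodels DNA during strand invasion, was at 9.10 (PtchLacZ/+), 8.66 (SmoM2, 2 months) and 8.70 (SmoM2, 1 month) in the tumours, against 5.92 in the cerebellum, and its relative Rad54b at 7.87 (PtchLacZ/+), 7.30 (SmoM2, 2 months) and 7.34 (SmoM2, 1 month) in the tumours, against 5.15 in the cerebellum. They rose by 2.89 ± 0.24 (adjusted p = 0.00488) and 2.35 ± 0.28 (adjusted p = 0.00949). For both, the SmoM2 tumours were nearly equal and the PtchLacZ/+ tumour was higher than either.

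Rad51ap1, a cofactor of the strand-exchange recombinase, was at 7.94 in the PtchLacZ/+ tumour, 7.77 in the 2-month and 6.96 in the 1-month SmoM2 tumour, against 5.14 in the cerebellum. It rose by 2.41 ± 0.42 (adjusted p = 0.0226, adjusted p = 0.0762 with adjustment over all probe sets), with the 1-month SmoM2 tumour the lowest of the tumours. Blm, the helicase lost in Bloom syndrome, which dissolves joined recombination intermediates, was at 8.60 (PtchLacZ/+), 8.14 (SmoM2, 2 months) and 8.24 (SmoM2, 1 month) in the tumours, against 6.47 in the cerebellum. It rose by 1.85 ± 0.24 (adjusted p = 0.0110), and its lowest tumour was still more than 1 unit above the cerebellum.

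The mediators and recombinase paralogs did not pass. Brca2, which loads the recombinase onto DNA, was at 8.14 in the PtchLacZ/+ tumour, 6.98 in the 2-month and 7.70 in the 1-month SmoM2 tumour, against 5.93 in the cerebellum. All tumours were above the cerebellum, but they were spread over more than 1 unit, and the difference of 1.68 ± 0.46 missed the threshold (adjusted p = 0.0743, adjusted p = 0.00264 without the 2-month SmoM2 tumour). Palb2, the bridge between BRCA1 and BRCA2, was at 6.58 (PtchLacZ/+), 6.47 (SmoM2, 2 months) and 6.13 (SmoM2, 1 month) in the tumours, against 6.05 in the cerebellum, and differed by 0.34 ± 0.24 (adjusted p = 0.431, 95% interval -0.26 to 0.95). The 1-month SmoM2 tumour was here the closest to the cerebellum. Rad51c was at 7.60 (PtchLacZ/+), 7.37 (SmoM2, 2 months) and 7.27 (SmoM2, 1 month) in the tumours, against 6.69 in the cerebellum, and differed by 0.73 ± 0.20 (adjusted p = 0.0799, adjusted p = 0.0376 without the 2-month SmoM2 tumour). Xrcc3 was at 7.55 (PtchLacZ/+), 7.40 (SmoM2, 2 months) and 7.64 (SmoM2, 1 month) in the tumours, against 7.08 in the cerebellum, and differed by 0.45 ± 0.18 (adjusted p = 0.186, 95% interval -0.02 to 0.93) and Rad51d by -0.37 ± 0.16 (adjusted p = 0.218, 95% interval -0.79 to 0.05). Rad51d was at 7.45 in the PtchLacZ/+ tumour, 7.45 in the 2-month and 7.43 in the 1-month SmoM2 tumour, against 7.81 in the cerebellum, so that its tumours were nearly equal and all below the cerebellum. None of these 3 recombinase paralogs passed. A further paralog outside the chosen genes, Rad51b, was at 7.09 (PtchLacZ/+), 6.88 (SmoM2, 2 months) and 6.61 (SmoM2, 1 month) in the tumours, against 5.29 in the cerebellum, and rose by 1.57 ± 0.24 (adjusted p = 0.0164).

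**Figure D2:**
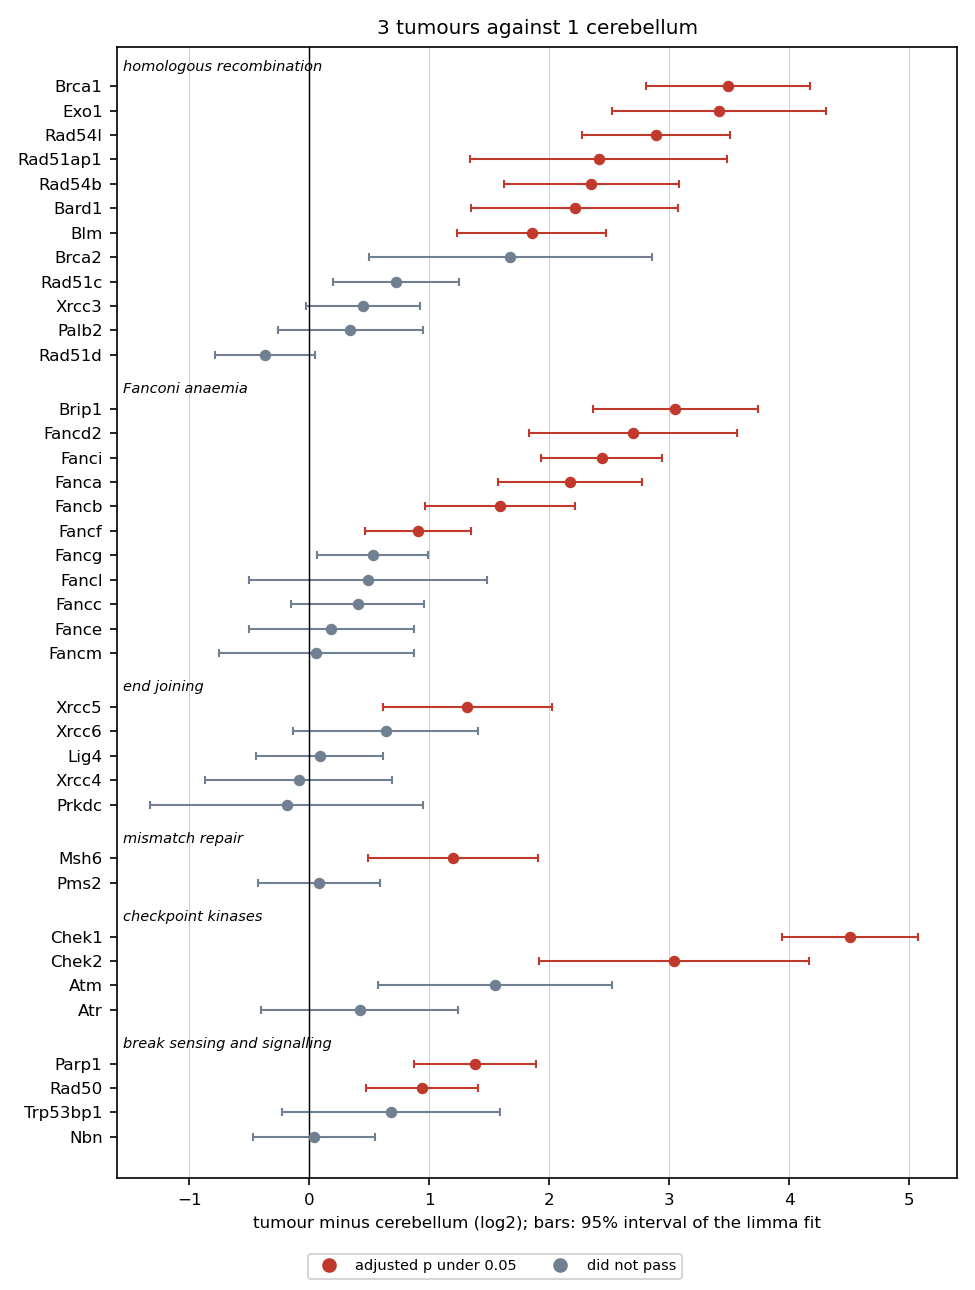
Difference of the 3 tumours from the cerebellum (log2) for each gene with the 95% interval of the limma fit, by role, red where the adjusted p was under 0.05. The differences run from -0.37 (Rad51d) to 4.51 (Chek1), and the intervals of most end joining genes include 0.

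In the Fanconi anaemia group 6 of 11 genes rose. The paired substrates of the pathway and its helicase rose. Fancd2, which is ubiquitinated at crosslinks together with Fanci, was at 8.54 in the PtchLacZ/+ tumour, 8.05 in the 2-month and 7.73 in the 1-month SmoM2 tumour, against 5.41 in the cerebellum, and Fanci was at 7.76 (PtchLacZ/+), 7.50 (SmoM2, 2 months) and 7.51 (SmoM2, 1 month) in the tumours, against 5.15 in the cerebellum. Fancd2 rose by 2.70 ± 0.34 (adjusted p = 0.0102) and Fanci by 2.44 ± 0.20 (adjusted p = 0.00469). No tumour of either gene came within 2 units of the cerebellum, and the SmoM2 tumours were nearly equal for Fanci.

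Brip1, the BRCA1-associated helicase also known as Fancj, was at 7.94 in the PtchLacZ/+ tumour, 7.43 in the 2-month and 7.45 in the 1-month SmoM2 tumour, against 4.55 in the cerebellum. The cerebellar level was under the lower quartile, and the rise of 3.05 ± 0.27 is a lower limit (adjusted p = 0.00523).

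Of the 8 measured genes of the core complex and its anchor, the ubiquitin ligase assembly that acts on Fancd2 and Fanci, 3 rose. Fanca was at 8.18 (PtchLacZ/+), 7.79 (SmoM2, 2 months) and 8.19 (SmoM2, 1 month) in the tumours, against 5.87 in the cerebellum, and rose by 2.18 ± 0.23 (adjusted p = 0.00734). The X-linked gene Fancb was at 7.36 (PtchLacZ/+), 7.53 (SmoM2, 2 months) and 7.04 (SmoM2, 1 month) in the tumours, against 5.72 in the cerebellum, and rose by 1.59 ± 0.24 (adjusted p = 0.0165, adjusted p = 0.0581 without the PtchLacZ/+ tumour). Fancf was at 8.15 (PtchLacZ/+), 8.20 (SmoM2, 2 months) and 8.05 (SmoM2, 1 month) in the tumours, against 7.23 in the cerebellum, and rose by 0.91 ± 0.17 (adjusted p = 0.0289, adjusted p = 0.0715 without the 1-month SmoM2 tumour, adjusted p = 0.127 without the PtchLacZ/+ tumour). Each of these genes had all tumours above the cerebellum, Fancf by the smallest margin. Fancf passed in 6 of 11 alternatives, and among those it missed were a trended prior variance and 3 groups fitted apart.

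The other core genes did not pass. Fancg differed by 0.53 ± 0.18 (adjusted p = 0.123, adjusted p = 0.0471 without the 2-month SmoM2 tumour), Fancl, the ligase subunit itself, by 0.49 ± 0.39 (adjusted p = 0.501), Fancc by 0.40 ± 0.22 (adjusted p = 0.305), Fance by 0.19 ± 0.27 (adjusted p = 0.734) and Fancm, the translocase that anchors the complex to DNA, by 0.06 ± 0.31 (adjusted p = 0.936). For Fancg, Fancc and Fance all tumours lay above the cerebellum, though only just for Fance in the PtchLacZ/+ tumour. Fancl was at 7.41 in the PtchLacZ/+ tumour, 7.49 in the 2-month and 6.63 in the 1-month SmoM2 tumour, against 6.69 in the cerebellum, and Fancm at 7.61 in the PtchLacZ/+ tumour, 6.90 in the 2-month and 7.40 in the 1-month SmoM2 tumour, against 7.24 in the cerebellum. In these the cerebellum lay among the tumours. The 95% interval for Fancl ran from -0.50 to 1.48, so it includes a rise as large as that of Fancf.

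Among the checkpoint kinases the effectors Chek1 and Chek2 rose, Atm lay close to the threshold and Atr did not pass. Chek1, which holds cells in S and G2 phase when replication stalls, was at 9.40 in the PtchLacZ/+ tumour, 9.58 in the 2-month and 9.17 in the 1-month SmoM2 tumour, against 4.88 in the cerebellum. The rise of 4.51 ± 0.22, or 22.7-fold (adjusted p = 0.00295), was the largest among the 38 genes. Its unadjusted interval ran from 3.94 to 5.08. The cerebellar level was under the lower quartile, so background may hide a larger rise, but the error of the fit still applies. Chek2, the effector of Atm, was at 8.09 in the PtchLacZ/+ tumour, 8.81 in the 2-month and 7.72 in the 1-month SmoM2 tumour, against 5.16 in the cerebellum, and rose by 3.04 ± 0.44 (adjusted p = 0.0140, adjusted p = 0.0575 with adjustment over all probe sets). Its tumours were spread over more than 1 unit, with the 2-month SmoM2 tumour the highest, while those of Chek1 lay closer together.

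Atm, the kinase activated by double-strand breaks, was at 9.48 (PtchLacZ/+), 8.56 (SmoM2, 2 months) and 9.18 (SmoM2, 1 month) in the tumours, against 7.52 in the cerebellum. All tumours lay 1 unit or more above the cerebellum, but the difference of 1.55 ± 0.38 missed the threshold (adjusted p = 0.0558, adjusted p = 0.00212 without the 2-month SmoM2 tumour). Atm passed in 5 of 11 alternatives, which besides that one were quantile normalization (adjusted p = 0.0459), a filter on low levels (adjusted p = 0.0439), a trended prior variance (adjusted p = 0.0482) and centring by gene span (adjusted p = 0.0430). Atr, the kinase activated by single-stranded DNA at stalled forks, was at 8.02 (PtchLacZ/+), 7.33 (SmoM2, 2 months) and 7.94 (SmoM2, 1 month) in the tumours, against 7.34 in the cerebellum. The 2-month SmoM2 tumour was level with the cerebellum and the other tumours were higher, with a difference of 0.42 ± 0.32 (adjusted p = 0.482, adjusted p = 0.0304 without the 2-month SmoM2 tumour).

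Of the sensing and signalling genes, Parp1 and Rad50 rose. Parp1, which marks breaks with poly(ADP-ribose), was at 10.13 in the PtchLacZ/+ tumour, 10.26 in the 2-month and 9.96 in the 1-month SmoM2 tumour, against 8.74 in the cerebellum, and rose by 1.38 ± 0.20 (adjusted p = 0.0139). Rad50, of the complex that tethers broken ends, was at 8.00 (PtchLacZ/+), 7.80 (SmoM2, 2 months) and 7.83 (SmoM2, 1 month) in the tumours, against 6.94 in the cerebellum, and rose by 0.94 ± 0.18 (adjusted p = 0.0301). Rad50 passed in 6 of 11 alternatives, and among those it missed were a trended prior variance and 3 groups fitted apart. Nbn, its partner in that complex, was at 8.17 in the PtchLacZ/+ tumour, 8.31 in the 2-month and 8.00 in the 1-month SmoM2 tumour, against 8.12 in the cerebellum, and differed by 0.04 ± 0.20 (adjusted p = 0.936, 95% interval -0.47 to 0.55). Trp53bp1, which shields ends from resection and favours end joining, was at 9.51 (PtchLacZ/+), 8.83 (SmoM2, 2 months) and 9.63 (SmoM2, 1 month) in the tumours, against 8.64 in the cerebellum, and differed by 0.68 ± 0.35 (adjusted p = 0.289, adjusted p = 0.00944 without the 2-month SmoM2 tumour). For Nbn the cerebellum lay among the tumours, whereas for Trp53bp1 all tumours were above it, the 2-month SmoM2 tumour by the least. Trp53bp1 did not pass with either of the other tumours left out. Without the PtchLacZ/+ tumour neither Parp1 (adjusted p = 0.0584) nor Rad50 (adjusted p = 0.125) passed, and without the 1-month SmoM2 tumour Rad50 did not (adjusted p = 0.0773).

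End joining genes were all above the lower quartile in the cerebellum, as were all other members except Exo1, Brip1 and Chek1. Of the 5, 1 rose, where 6.70% of all genes did. Xrcc5, which encodes 1 subunit of the Ku ring that caps broken ends, was at 9.72 in the PtchLacZ/+ tumour, 9.99 in the 2-month and 9.39 in the 1-month SmoM2 tumour, against 8.38 in the cerebellum. It rose by 1.32 ± 0.27 (adjusted p = 0.0362) but missed the threshold with the PtchLacZ/+ tumour left out (adjusted p = 0.106). Xrcc6, the other Ku subunit, was at 7.71 (PtchLacZ/+), 8.31 (SmoM2, 2 months) and 7.71 (SmoM2, 1 month) in the tumours, against 7.27 in the cerebellum, and differed by 0.64 ± 0.30 (adjusted p = 0.246). All tumours lay above the cerebellum for both subunits, with the 2-month SmoM2 tumour the highest.

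The ligase gene Lig4 was at 8.28 in the PtchLacZ/+ tumour, 8.49 in the 2-month and 8.15 in the 1-month SmoM2 tumour, against 8.22 in the cerebellum, and differed by 0.09 ± 0.21 (adjusted p = 0.848, 95% interval -0.44 to 0.62). Its scaffold Xrcc4 was at 7.45 (PtchLacZ/+), 8.14 (SmoM2, 2 months) and 7.69 (SmoM2, 1 month) in the tumours, against 7.85 in the cerebellum, and differed by -0.09 ± 0.30 (adjusted p = 0.897, 95% interval -0.87 to 0.69). Prkdc, the catalytic subunit of the DNA-dependent protein kinase, was at 7.51 in the PtchLacZ/+ tumour, 6.58 in the 2-month and 7.59 in the 1-month SmoM2 tumour, against 7.41 in the cerebellum, and differed by -0.19 ± 0.44 (adjusted p = 0.848, 95% interval -1.33 to 0.95). For all 3 the cerebellum lay among the tumours. The unadjusted intervals for Lig4 and Xrcc4 lay within 1 unit of no difference, which rests on the 1 cerebellum varying like the tumours. That for Prkdc reached further, and its 2-month SmoM2 tumour was about 1 unit under the other tumours. The sign of the difference turned for Prkdc (0.14) and Lig4 (-0.0048) when the 2-month SmoM2 tumour was left out, and for Xrcc4 (0.065) when the PtchLacZ/+ tumour was.

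Of the mismatch repair genes, Msh6, which recognises mispaired bases, was at 9.09 in the PtchLacZ/+ tumour, 9.37 in the 2-month and 8.76 in the 1-month SmoM2 tumour, against 7.87 in the cerebellum. It rose by 1.20 ± 0.28 (adjusted p = 0.0473), but missed the threshold with the PtchLacZ/+ tumour left out (adjusted p = 0.130). Pms2, which nicks the strand to be corrected, was at 8.49 (PtchLacZ/+), 8.28 (SmoM2, 2 months) and 8.19 (SmoM2, 1 month) in the tumours, against 8.24 in the cerebellum, and differed by 0.08 ± 0.20 (adjusted p = 0.850, 95% interval -0.43 to 0.59).

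Set side by side, 13 of 23 recombination and Fanconi genes rose (median difference 1.68), as did 2 of 7 end joining and mismatch repair genes (median difference 0.09). Over all genes 6.70% rose and the median difference was 0.04. In the single tumours the median of the recombination and Fanconi genes was 2.13 in the PtchLacZ/+, 1.67 in the 2-month SmoM2 and 1.77 in the 1-month SmoM2 tumour, and that of the end joining and mismatch repair genes was 0.26, 0.29 and 0.17 in the same tumours. The order of the groups was thus the same in each tumour, all read against the same cerebellum. The groups overlapped gene by gene. Xrcc5 and Msh6 exceeded 10 of the 23 recombination and Fanconi genes. Palb2, Xrcc3, Fancc, Fance, Fancg, Fancl and Fancm lay within the range of the end joining genes that did not pass, from -0.19 to 0.64, and Rad51d lay below it. The groups were chosen by role with earlier results known, and the difference between them was not tested. With Exo1 counted as mismatch repair, Trp53bp1 as end joining and Blm left out, the median of the smaller group became 0.64 and that of the larger 1.59, and without the 1-month SmoM2 tumour the median of the smaller group became 0.17.

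**Figure D3:**
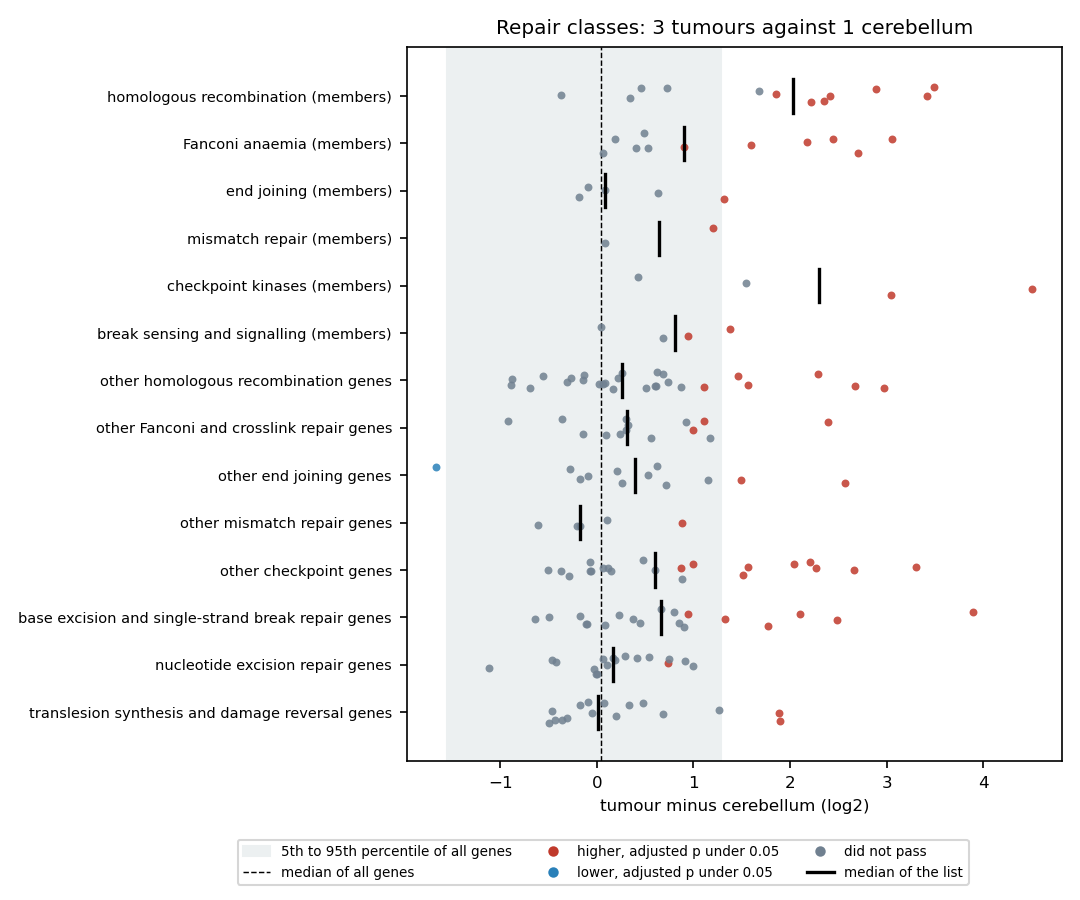
Difference of the 3 tumours from the cerebellum (log2), 1 point per gene, for the 6 groups of members and for 8 lists of other repair genes, with the median of each list as a black bar and the middle 90% of all genes in grey. The homologous recombination and checkpoint members have medians beyond 2, and the end joining members a median of 0.09.

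Further genes of DNA repair and checkpoint signalling were read in the same way. Of 131 measured genes in 8 further lists, 30 rose and 1 fell, with a median difference of 0.29, where 6.70% of all genes rose, 9.30% fell and the median was 0.04. By list, 9 of 21 other checkpoint genes rose, 6 of 19 base excision and single-strand break genes, 6 of 27 other recombination genes, 3 of 14 other crosslink repair genes, 2 of 12 other end joining genes, 2 of 16 translesion and damage reversal genes, 1 of 17 nucleotide excision genes and 1 of 5 other mismatch repair genes, of which the nucleotide excision and translesion lists lie nearest to the share of all genes. With the 2-month SmoM2 tumour left out 49 of the 131 rose and 8 fell, and with the PtchLacZ/+ tumour left out 18 rose and 1 fell. The count of all genes that rose moved likewise, to 2689 and 628, against 1336 with all tumours.

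Among them, Neil3, a glycosylase for oxidised bases, rose by 3.89 ± 0.24 (adjusted p = 0.00343) and Lig1, the ligase of the replication fork, by 2.48 ± 0.23 (adjusted p = 0.00576). The phosphatase gene Cdc25c, whose product drives cells into mitosis and is held back by Chek1, rose by 3.30 ± 0.18 (adjusted p = 0.00335), and Clspn, the adaptor through which Atr activates Chek1, rose by 2.66 ± 0.29 (adjusted p = 0.00744). The cerebellar levels of Neil3, Cdc25c and Clspn were under the lower quartile, so these rises are lower limits. Of the nucleases that cut recombination intermediates, Gen1 rose by 2.97 ± 0.23 (adjusted p = 0.00436) and Eme1 by 2.67 ± 0.18 (adjusted p = 0.00365). The cerebellar level of Eme1, 5.07, was under the lower quartile, so its rise is a lower limit. Mus81, the partner of Eme1, differed by -0.88 ± 0.27 (adjusted p = 0.0962) and Zswim7, a recombination factor, by -0.89 ± 0.32 (adjusted p = 0.142).

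The other end joining list held the 1 gene that fell. Paxx, a partner of Ku in end joining, was at 7.75 in the PtchLacZ/+ tumour, 7.63 in the 2-month and 7.47 in the 1-month SmoM2 tumour, against 9.28 in the cerebellum, and fell in the tumours with a difference of -1.66 ± 0.19 (adjusted p = 0.00863). Polq, the polymerase of an alternative joining pathway that uses short homologies, was at 7.95 in the PtchLacZ/+ tumour, 7.07 in the 2-month and 7.83 in the 1-month SmoM2 tumour, against 5.05 in the cerebellum. It rose by 2.57 ± 0.39 (adjusted p = 0.0160), a lower limit because its cerebellar level was under the lower quartile. Tdp1, which frees DNA ends from trapped topoisomerase, rose by 1.50 ± 0.26 (adjusted p = 0.0228), and Rif1, which acts with Trp53bp1, differed by -0.28 ± 0.30 (adjusted p = 0.643). The tumours of Paxx and of Polq were on opposite sides of the cerebellum without overlap.

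Of the crosslink repair list Mad2l2 rose by 2.39 ± 0.24 (adjusted p = 0.00677), while Usp1, the enzyme that removes ubiquitin from Fancd2, differed by 1.17 ± 0.32 (adjusted p = 0.0774), Faap20, a core complex partner, by -0.92 ± 0.22 (adjusted p = 0.0531) and Ercc4 by -0.36 ± 0.17 (adjusted p = 0.245). In the translesion list Zranb3 and Rad18 rose by 1.89 ± 0.22 and 1.89 ± 0.37 (adjusted p = 0.00919 and 0.0316), and Rev1 and Alkbh3 differed by -0.49 ± 0.18 and -0.47 ± 0.27 (adjusted p = 0.151 and 0.344). In nucleotide excision repair Gtf2h4 and Ercc1 differed by 0.99 ± 0.51 and 0.91 ± 0.31 (adjusted p = 0.283 and 0.129), and Ddb2 and Ercc8 by -1.11 ± 0.36 and -0.47 ± 0.20 (adjusted p = 0.114 and 0.199). Of the remaining mismatch repair genes Msh5, known for its role in meiosis, rose by 0.88 ± 0.19 (adjusted p = 0.0398), and Msh3, Pms1 and Mlh3 differed by 0.11 ± 0.23, -0.21 ± 0.25 and -0.61 ± 0.16 (adjusted p = 0.836, 0.676 and 0.0703). The lower ends of the checkpoint and base excision lists were Ppm1d (-0.51 ± 0.19) and Rad17 (-0.38 ± 0.23), and Polb (-0.64 ± 0.21) and Mpg (-0.49 ± 0.20), none of which passed (adjusted p = 0.161, 0.366, 0.123 and 0.181).

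Since many members moved together, their promoters were searched for sequence motifs known from cell cycle genes. RefSeq windows of 300 bases (250 before to 50 after the most upstream annotated start, build GRCm38.p6) were at hand for 31 of the 38 genes. The E2F motif was searched as TTTCCCGC, TTTGGCGC, TTTCGCGC or TTTGCCGC, the CHR motif of late cell cycle genes as TTTGAA and the CCAAT box as CCAAT, each on both strands. An E2F motif was in 7 of the 31 windows (22.6%), against 3.1% of the windows of 15614 genes measured on the arrays. It was in 3 of 15 windows of members that rose and in 4 of 16 windows of members that did not pass. The CCAAT box was in 19 of 31 windows (61.3%), against 38.4% of measured genes, with 11 of 15 among the members that rose and 8 of 16 among those that did not pass. The CHR motif was in 1 of 31 windows (3.23%, Bard1), against 15.2% of measured genes. A match of letters is a description of the window and not a shown binding site. All E2F matches had the form TTTCCCGC on 1 of the strands. The 40 bases around each are printed 5′ to 3′ on the strand of the gene, with the motif in capitals, in the order of the genes' differences in tumour against cerebellum.
Chek2 (chr5:110839815-110839854, plus strand): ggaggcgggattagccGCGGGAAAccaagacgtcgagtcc
Bard1 (chr1:71103158-71103197, minus strand): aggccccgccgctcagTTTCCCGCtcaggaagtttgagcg
Brca2 (chr5:150522437-150522476, plus strand): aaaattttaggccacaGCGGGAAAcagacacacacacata
Msh6 (chr17:87975049-87975088, plus strand): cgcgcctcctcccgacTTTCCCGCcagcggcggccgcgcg
Rad51c (chr11:87404936-87404975, minus strand): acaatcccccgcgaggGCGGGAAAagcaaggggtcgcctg
Xrcc6 (chr15:82016307-82016346, plus strand): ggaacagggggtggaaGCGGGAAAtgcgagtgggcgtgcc
Fancg (chr4:43010330-43010369, minus strand): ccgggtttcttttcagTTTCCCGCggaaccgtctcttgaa

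Chek2, Bard1 and Msh6 of these rose, by 3.04, 2.21 and 1.20, and Brca2, Rad51c, Xrcc6 and Fancg did not pass. The promoters of the 4 recombination and Fanconi genes with the largest differences and of the 2 end joining genes with the smallest, among those with a window, are printed next to show both ends of the range. Each stretch runs from 150 bases before to 50 bases after the start, 5′ to 3′ on the strand of the gene, with CCAAT boxes of either strand in capitals.
Brca1 (chr11:101551906-101552105, minus strand): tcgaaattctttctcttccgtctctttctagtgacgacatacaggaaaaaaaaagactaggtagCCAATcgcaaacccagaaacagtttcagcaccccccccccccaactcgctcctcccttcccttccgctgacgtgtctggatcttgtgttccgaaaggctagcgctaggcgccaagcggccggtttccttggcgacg
Brip1 (chr11:86201144-86201343, minus strand): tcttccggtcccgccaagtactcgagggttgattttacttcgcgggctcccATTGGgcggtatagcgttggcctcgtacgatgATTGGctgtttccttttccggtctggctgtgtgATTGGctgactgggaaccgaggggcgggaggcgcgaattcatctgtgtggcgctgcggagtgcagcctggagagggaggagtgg
Rad54l (chr4:116123641-116123840, minus strand): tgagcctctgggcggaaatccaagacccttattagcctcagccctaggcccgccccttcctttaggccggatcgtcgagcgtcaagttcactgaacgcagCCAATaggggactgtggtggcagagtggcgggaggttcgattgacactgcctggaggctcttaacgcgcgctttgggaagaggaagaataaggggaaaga
Fanci (chr7:79392188-79392387, plus strand): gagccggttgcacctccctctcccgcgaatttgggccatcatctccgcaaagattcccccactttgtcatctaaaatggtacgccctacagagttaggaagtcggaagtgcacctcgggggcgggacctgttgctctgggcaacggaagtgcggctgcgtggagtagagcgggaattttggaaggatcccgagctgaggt
Lig4 (chr8:9977631-9977830, minus strand): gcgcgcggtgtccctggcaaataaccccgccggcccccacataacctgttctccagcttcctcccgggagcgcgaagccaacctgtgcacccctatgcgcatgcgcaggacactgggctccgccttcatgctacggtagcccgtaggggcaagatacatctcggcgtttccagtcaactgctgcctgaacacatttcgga
Xrcc4 (chr13:90089559-90089758, minus strand): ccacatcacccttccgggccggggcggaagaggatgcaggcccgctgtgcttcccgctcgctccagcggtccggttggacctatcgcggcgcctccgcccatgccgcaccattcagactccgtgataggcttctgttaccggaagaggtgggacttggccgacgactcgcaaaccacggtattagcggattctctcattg

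Brca1 and Rad54l each had 1 CCAAT box and Brip1 had 3, all before the start, while the stretches of Fanci, Lig4 and Xrcc4 had none. None of the 6 windows had an E2F or CHR motif in the form searched. Fanci, which rose by 2.44 ± 0.20, and Lig4 and Xrcc4, which did not pass, held none of the 3 motifs as searched. Near matches were not counted, and the part of the motifs in the differences was not tested.

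The PtchLacZ/+ tumour was next set against both SmoM2 tumours, to ask whether repair genes differ between the models. None of the 38 genes passed, nor did any of the 19938 genes in this limma fit, which rests on the spread of 2 tumours, and at an unadjusted p under 0.05 there were 0 of the 38 and 1.40% of all genes. The levels of the recombination genes still lay mostly in 1 order. For 19 of the 38 genes the PtchLacZ/+ tumour was above both SmoM2 tumours, which held for 23.8% of all genes, and for 2 it was below both, against 31.1% of all genes. The 19 included 10 of 12 recombination genes, 5 of 11 Fanconi genes, 2 of 4 checkpoint kinases, 1 mismatch repair gene, 1 sensing gene and none of the 5 end joining genes. The median difference, PtchLacZ/+ minus SmoM2, was 0.45 for the recombination genes, 0.19 for the Fanconi genes and -0.04 for the end joining genes, against -0.03 for all genes. Genotype and age cannot be told apart here, since the PtchLacZ/+ mouse was also the oldest.

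Brca2 had the largest of these differences. It was at 8.14 in the PtchLacZ/+ tumour, against 6.98 in the 2-month and 7.70 in the 1-month SmoM2 tumour, a difference of 0.80 ± 0.38 (95% interval -0.20 to 1.80). Fancd2 was at 8.54 in the PtchLacZ/+ tumour, against 8.05 in the 2-month and 7.73 in the 1-month SmoM2 tumour and differed by 0.64 ± 0.28 (95% interval -0.10 to 1.38), and Exo1 was at 8.64 in the PtchLacZ/+ tumour, against 8.24 in the 2-month and 7.80 in the 1-month SmoM2 tumour and differed by 0.62 ± 0.31 (95% interval -0.18 to 1.42). Bard1 differed by 0.61 ± 0.29 and Atm by 0.61 ± 0.35. In the other direction Xrcc4 was at 7.45 in the PtchLacZ/+ tumour, against 8.14 in the 2-month and 7.69 in the 1-month SmoM2 tumour, a difference of -0.46 ± 0.31 (95% interval -1.27 to 0.35), and Fance was the other gene below both SmoM2 tumours (-0.26 ± 0.32). Chek1 differed by 0.02 ± 0.30 and Parp1 by 0.02 ± 0.28, with intervals of -0.76 to 0.81 and -0.71 to 0.75. The intervals of all 38 genes include 0, and their upper ends lie between 0.35 and 1.80. For 4 of 15 proliferation markers the PtchLacZ/+ tumour was above both SmoM2 tumours, and their median difference was 0.09. The same held for 7 of 10 granule neuron progenitor markers (median 0.38) and 6 of 8 microglial markers (median 0.37). Markers of mature granule neurons (6 of 10), Purkinje cells (6 of 6), astrocytes (7 of 8) and oligodendrocytes (7 of 7) were lower in the PtchLacZ/+ tumour than in both SmoM2 tumours, with median differences of -0.89, -1.66, -1.03 and -0.91, and their part in the order of the repair genes was not tested.

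**Figure D4:**
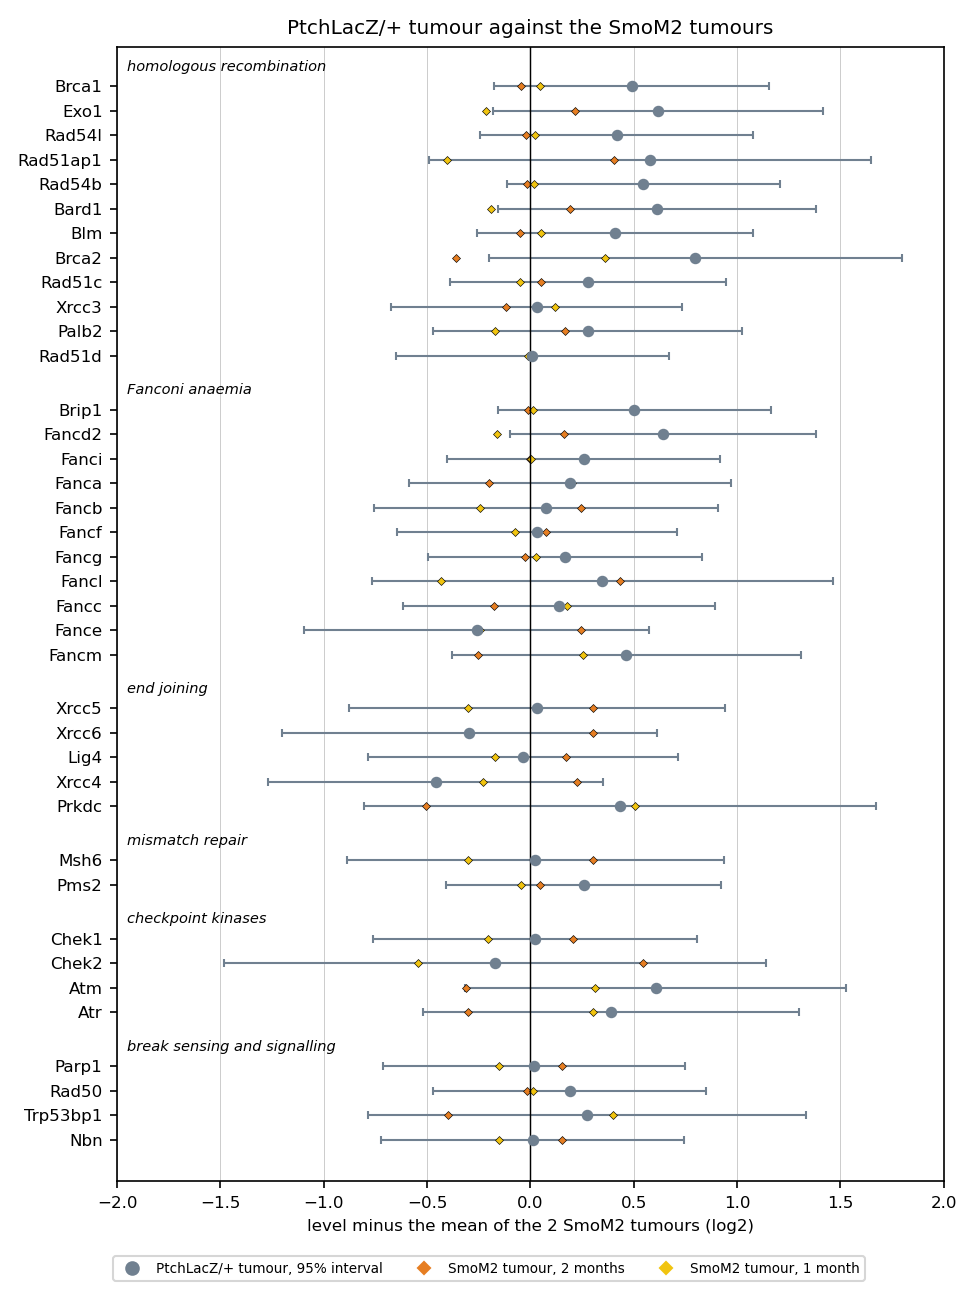
Level of each gene in the PtchLacZ/+ tumour (circle, with the 95% interval of the limma fit) and in both SmoM2 tumours (diamonds), relative to the mean of the SmoM2 tumours (log2). Most recombination circles lie to the right of both diamonds, and the intervals of all 38 genes include 0.

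The SmoM2 tumours at 2 months and 1 month were compared last, with 1 array each and hence no test. The median difference, 2 months minus 1 month, was 0.10 for the 38 genes and 0.08 for all genes. Only Chek2 (1.09) and Prkdc (-1.01) differed by at least 1 unit, 2 of 38 genes where 3.71% of all genes did. Chek2 was at 8.81 at 2 months and 7.72 at 1 month, and Prkdc at 6.58 and 7.59. Differences followed in Fancl (0.87), Rad51ap1 (0.81), Msh6 (0.61), Xrcc6 (0.60) and Xrcc5 (0.60), which were higher at 2 months, and in Trp53bp1 (-0.80), Brca2 (-0.72), Atm (-0.62), Atr (-0.60) and Fancm (-0.51), which were lower. For Brca1, Rad54l, Rad54b, Fanci, Fancg, Brip1, Rad50, Rad51d and Pms2 the levels at both ages were nearly equal, with differences between -0.09 (Brca1) and 0.09 (Pms2).

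Cell type markers moved with this difference. Of 8 endothelial and mural cell markers 7 differed by at least 1 unit (median 1.15), where 3.71% of all genes did. Of 15 proliferation markers 13 were higher at 2 months (median 0.43), where 11932 of all 19938 genes were (median 0.08). Mki67 (-0.81) and Top2a (-0.05) were lower. All 5 choroid plexus markers were lower at 2 months (median -0.75), with Ttr at 4.50 at 2 months and 11.27 at 1 month. The part of these cell types in the differences of the repair genes was not tested.

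Gene span moved with this difference too. Of genes above the median level, split into 5 classes of gene span, the shortest had a median difference of 0.34 between the 2-month and the 1-month tumour, and the longest -0.23. The PtchLacZ/+ tumour showed less of it against the same 1-month tumour, with medians of 0.05 and -0.05. Trp53bp1, Atm, Atr and Prkdc span 95621 to 204796 bases in the RefSeq annotation and were all lower at 2 months. Of the other 6 members in the longest class, Fancc (-0.36), Blm (-0.10) and Brip1 (-0.02) were lower by less, and Fancl (0.87), Xrcc5 (0.60) and Xrcc4 (0.45) were higher at 2 months. With each array centred within 20 classes of gene span, an alternative chosen after the data were seen, Chek2 differed by 1.01 and Prkdc by -0.84, so that 1 gene stayed past 1 unit. The part of gene span and that of age were not tested. In tumour against cerebellum the same centring gave 20 members that rose, the added gene being Atm.

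**Figure D5:**
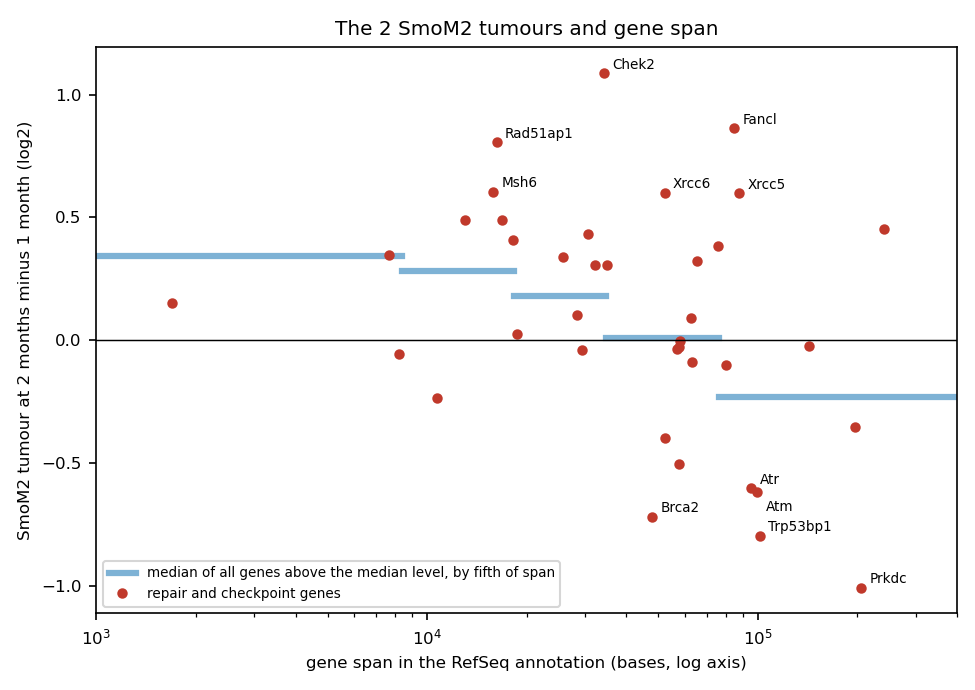
Difference between the SmoM2 tumours, 2 months minus 1 month (log2), against gene span (bases, log axis) for the 38 genes (points) and as the median of all genes above the median level in 5 classes of span (bars). The bars descend from 0.34 to -0.23, and among the longest genes Prkdc, Trp53bp1, Atm, Atr and Fancc lie below their bar while Fancl, Xrcc5 and Xrcc4 lie above 0.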

How the data were processed

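Expression was measured on 4 Affymetrix Mouse Gene 1.0 ST arrays, 1 per tissue sample, and the labels gave group, genotype and age. The authors deposited log2 values for 35557 probe sets. Per the submitters' processing notes the tool was Affymetrix Expression Console. Its version, summarisation and normalization are not stated in the notes or labels, and the log2 scale was read from the values, which run from 2.71 to 14.9. Array medians were 6.30 (PtchLacZ/+), 6.12 (SmoM2, 2 months), 6.36 (SmoM2, 1 month) and 6.20 (cerebellum), and no further normalization or filter was applied. The number of arrays limits the precision, and the table holds no detection calls.

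A single gene symbol was annotated for 21789 probe sets, several for 1621 and none for 12147. Of the first, 21698 matched a mouse RefSeq gene. For the 999 genes with more than 1 probe set, the one with the highest mean was used. The 39 members, the other repair lists and the marker lists were chosen by role with earlier results of these data known.

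Tumours were compared with the cerebellum by limma 3.58.1 in R 4.3.3 (lmFit and eBayes, 2 residual degrees of freedom), and the PtchLacZ/+ tumour with the SmoM2 tumours likewise (1 residual degree of freedom). Benjamini-Hochberg adjustment ran over 19938 genes, with a threshold of 0.05. In both fits a lone sample is assumed to vary like the replicated group. The SmoM2 ages have 1 array each, so differences of at least 1 were counted without a test. The code was checked on simulated data. Intervals are 95% and unadjusted. All members are named, and from each other repair list the 2 highest and the 2 lowest differences. Promoters are RefSeq windows of GRCm38.p6, with the most upstream start of a gene. Those printed are, among members with a window, the 4 recombination or Fanconi genes with the largest difference and the 2 end joining genes with the smallest, and every E2F match. Alternatives were quantile normalization, median centring, the mean of a gene's probe sets, a filter on low levels, a trended prior variance, adjustment over all probe sets, 3 groups fitted apart, leaving out each tumour, a reassignment of 3 genes to other groups, and centring by gene span, which was added after the data were seen. Adjustment over all probe sets includes a new fit on all of them.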

Additional observations from a re-analysis of the deposited data

Results flagged for a closer look

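Bard1 has 2 further probe sets on the array, which the comparisons did not use because their mean levels were lower. Both lay higher in the tumours than in the cerebellum, and were therefore singled out as a signal outside the values reported. The first was at 7.74 in the PtchLacZ/+ tumour, 6.97 in the 2-month and 7.21 in the 1-month SmoM2 tumour, against 4.78 in the cerebellum. That cerebellar level is under the lower quartile, so the difference of 2.52 is a lower limit. The second was at 7.11 in the PtchLacZ/+ tumour, 6.57 in the 2-month and 6.86 in the 1-month SmoM2 tumour, against 5.38 in the cerebellum, a difference of 1.46. In both further probe sets the PtchLacZ/+ tumour was the highest and the 2-month SmoM2 tumour the lowest of the tumours, whereas in the reported one the 1-month SmoM2 tumour was the lowest. No group holds the 4 samples that a check for outlying samples needs.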

How the results depend on the processing

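In tumour against cerebellum, 10 of the 19 members that rose passed in each of 11 alternatives, 6 of the other 19 passed in at least 1, and none passed as lower in any. The count of 19 became 10 with adjustment over all probe sets and 13 to 25 when a tumour was left out. The 13 recombination and Fanconi genes that rose became 11 to 16 when a tumour was left out, and the 2 end joining and mismatch repair genes 0 to 2. The end joining and mismatch repair count was 1 with a trended prior variance and 0 with adjustment over all probe sets and with 3 groups fitted apart. Of all genes, 1336 rose and 1855 fell. These counts were 501 and 750 with adjustment over all probe sets, 777 and 1174 with 3 groups fitted apart, and 628 to 2689 and 937 to 3321 when a tumour was left out. Of the other repair genes 30 rose, against 13 with adjustment over all probe sets and 18 to 49 when a tumour was left out. The 1 that fell became 2 with centred arrays, 3 with centring by gene span and 1 to 8 when a tumour was left out.

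The median of the recombination and Fanconi genes was 1.57 to 1.95 when a tumour was left out. That of the end joining and mismatch repair genes was 0.10 to 0.17, and 0.64 with Exo1 and Trp53bp1 added to the group. Leaving out a tumour turned the sign of 6 differences of members that did not pass, with ranges of -0.094 to 0.26 for Fancm, -0.28 to 0.065 for Xrcc4, -0.0048 to 0.17 for Lig4, -0.37 to 0.14 for Prkdc, -0.0027 to 0.15 for Pms2 and -0.036 to 0.12 for Nbn. Centring by gene span turned Xrcc4 (0.14), Prkdc (0.044) and Nbn (-0.0034). In PtchLacZ/+ against SmoM2, quantile normalization called 2 genes higher and 12 lower, and a trended prior variance 1 lower, none of them a member. There Rad51d turned to -0.0035 with quantile normalization, Lig4 to 0.020 with centred arrays and to 0.016 with centring by gene span, and Nbn to -0.15 with the mean of its probe sets. Between the SmoM2 ages 1 member passed 1 unit with quantile normalization and 1 with centring by gene span. Where no construction of the alternative shows it, the cause was not tested. Leaving out an SmoM2 tumour from the comparison with PtchLacZ/+ leaves no residual degrees of freedom and was not run. No paired analysis was possible because the labels give the groups no shared replicate numbers. The fit rests on 1 cerebellum, whose own spread was not measured, and levels near the lower quartile limit the size of the rises from it.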
